A study of Homo sapiens with 12 samples.

Results

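The genes described here moved in opposite directions when MDA-MB-231 cells, a human triple-negative breast cancer line, were kept in hypoxia and when they lost CCAR2, the gene that encodes the protein DBC1. They were chosen by their measured values: a mean of at least 1 CPM (a gene's count scaled to the sum of its library) in at least 1 group, a difference of mean log2(CPM + 0.5) of at least 0.5 in size in both comparisons with opposite signs, and no overlap between the 4 libraries of the condition and the 4 of the control in either comparison. HIF1A, MUC5AC, KISS1, ESM1 and UCA1 were left out by name. Of 60664 genes in the table, 14420 reached the CPM limit, and 91 met the rule. Of these, 56 were higher under hypoxia but lower in knockout (KO) cells, and 35 were higher in KO cells but lower under hypoxia. Across all 14420 measured genes, 5.93% passed the size and non-overlap limits as higher under hypoxia and 0.95% as lower, while 7.31% passed as higher in KO cells and 2.34% as lower.

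The RNA-seq data held 3 groups of 4 libraries each. These were untreated wild type (WT) cells in normoxia, WT cells in a chamber at 1% O2 for 24 hr, and untreated CCAR2-/- cells in normoxia. The KO cells were made with a LentiCRISPR vector, and whether they were a clone or a pool is not stated. No KO library under hypoxia was analysed here, so hypoxia and the knockout were never combined in the same cells. The paper reports that DBC1 protein falls in MDA-MB-231 cells under hypoxia, with CCAR2 mRNA unchanged, and these libraries measure RNA only. Both comparisons used the same 4 WT normoxia libraries. A high or low value in those shared libraries pushes both differences the same way, and a member of this set had to lie on opposite sides of them.

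Hypoxia stabilizes the HIF transcription factors, which bind hypoxia response elements and raise genes for glycolysis, angiogenesis and pH control. DBC1 is a nuclear protein known to bind and inhibit the deacetylase SIRT1 and to take part in p53 and nuclear receptor signaling. Interferon-stimulated genes are switched on by signaling from interferon receptors and viral RNA sensors, and NRF2 drives genes for glutathione synthesis and for the detoxification of reactive compounds.

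The KO label was checked first. CCAR2 read 150.3, 139, 157 and 153 CPM under hypoxia, 142, 142, 142 and 149.9 CPM in WT normoxia and 54.9, 57.6, 62.0 and 59.6 CPM in KO cells. The KO libraries lay far below all the others, with a difference of -1.29 from WT normoxia, while the hypoxia difference was 0.06. Library sums ranged from 68599412 to 213743693 estimated counts, and 3 libraries, 2 under hypoxia and 1 of KO cells, were under 100000000. Markers of the line were high in every library, with VIM between 4481 and 5417 CPM, while ESR1, PGR and CDH1 stayed at or under 0.472 CPM. EPCAM, GATA3 and ERBB3 were detected at 11.8 to 18.2, 4.87 to 8.24 and 7.39 to 13.7 CPM.

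Promoter sequences were looked up for the members, as the 250 bases before and 50 bases after the start in RefSeq (GRCh38.p14), and 62 of 91 were matched, 36 of those higher under hypoxia and 26 of those lower. The letters TATAAA, the TATA box, lay on either strand in 10 of the 36 promoters (27.8%) of genes lower in KO cells but higher under hypoxia, against 2 of 26 (7.69%) in the other direction, 5.57% of all measured genes and 12% of all 27305 promoters. The 4 KRTAP2 relatives among the 10 share sequence, and without them the count was 6 of 32 (18.8%). A TATAAA on either strand that began between positions -35 and -25 from the start was found in 6 of the 36 (16.7%) and in 1 of 26 (3.85%). The share was 1.97% of measured genes and 2.86% of all promoters. That window was chosen after the hits were seen. In F3 and FSTL3 the hit lay only on the opposite strand, and reads TTTATA on the gene's strand. The 80 bases before the start are shown for 9 of the 10 genes, 5′ to 3′ on the gene's strand, with the hit in capitals, so that its distance from the start can be compared. The stretches are chr11:10304993-10305072 (+ strand) for ADM, chr7:130293081-130293160 (+) for CPA4, chr5:172771196-172771275 (- strand) for DUSP1, chr1:94541760-94541839 (-) for F3, chr19:676312-676391 (+) for FSTL3, and chr17:41047317-41047396, chr17:41055231-41055310, chr17:41060115-41060194 and chr17:41065880-41065959 (all -) for KRTAP2-1 to KRTAP2-4.
ADM: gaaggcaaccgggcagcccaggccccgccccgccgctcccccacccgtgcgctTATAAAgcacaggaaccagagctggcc
CPA4: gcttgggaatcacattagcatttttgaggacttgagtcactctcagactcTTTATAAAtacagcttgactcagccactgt
DUSP1: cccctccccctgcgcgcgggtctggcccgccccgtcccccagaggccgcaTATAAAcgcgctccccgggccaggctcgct
F3: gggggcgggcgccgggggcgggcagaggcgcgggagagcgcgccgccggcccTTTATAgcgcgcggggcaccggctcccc
FSTL3: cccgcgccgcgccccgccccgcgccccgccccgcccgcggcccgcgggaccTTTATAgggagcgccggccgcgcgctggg
KRTAP2-1: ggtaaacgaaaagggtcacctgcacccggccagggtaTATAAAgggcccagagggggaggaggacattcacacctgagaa
KRTAP2-2: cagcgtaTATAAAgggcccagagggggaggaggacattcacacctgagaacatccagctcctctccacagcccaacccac
KRTAP2-3: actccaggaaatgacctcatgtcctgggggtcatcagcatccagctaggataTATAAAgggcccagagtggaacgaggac
KRTAP2-4: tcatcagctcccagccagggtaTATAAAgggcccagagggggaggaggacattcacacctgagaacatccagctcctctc

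The interferon-stimulated response element, written GAAANNGAAA and searched on both strands, was found in 4 of the 26 promoters (15.4%) of genes higher in KO cells but lower under hypoxia, those of GBP1, GBP4, IFI44L and IFIT1. It lay in 1 of 36 (2.78%) in the other direction, 2.75% of measured genes and 3.65% of all promoters. This motif was picked after the values were known. The promoters of the interferon-stimulated members IFIT2 and OAS2 were not matched. IFIT1 (chr10:89392373-89392672, + strand) and IFI44L (chr1:78620198-78620497, + strand) are shown whole because each holds 2 hits, in capitals, starting at -116 and -103 and at -164 and -73 from the start of transcription. The 2 hits of IFI44L have the same letters and lie in a stretch that is repeated within the window, so they are not independent.
IFIT1: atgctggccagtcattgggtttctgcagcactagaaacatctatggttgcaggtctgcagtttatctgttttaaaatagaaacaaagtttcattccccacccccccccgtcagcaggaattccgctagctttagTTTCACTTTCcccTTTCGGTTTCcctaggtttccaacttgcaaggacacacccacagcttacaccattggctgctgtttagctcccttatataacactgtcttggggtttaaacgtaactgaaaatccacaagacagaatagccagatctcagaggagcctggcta
IFI44L: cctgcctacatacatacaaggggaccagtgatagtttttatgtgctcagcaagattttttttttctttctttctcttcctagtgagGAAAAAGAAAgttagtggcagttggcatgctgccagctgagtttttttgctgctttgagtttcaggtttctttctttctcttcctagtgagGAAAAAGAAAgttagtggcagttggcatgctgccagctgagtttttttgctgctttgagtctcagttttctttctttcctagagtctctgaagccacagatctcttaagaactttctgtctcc

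The core of the hypoxia response element, ACGTG or GCGTG on either strand, was found in 19 of 36 (52.8%) and 13 of 26 (50%) promoters in the 2 directions, against 63.1% of measured genes and 48.4% of all promoters. HIF1A-AS3 (chr14:61751048-61751347, - strand), an antisense RNA at HIF1A, is shown because it had the largest hypoxia difference of all members. Its 3 core hits are in capitals.
HIF1A-AS3: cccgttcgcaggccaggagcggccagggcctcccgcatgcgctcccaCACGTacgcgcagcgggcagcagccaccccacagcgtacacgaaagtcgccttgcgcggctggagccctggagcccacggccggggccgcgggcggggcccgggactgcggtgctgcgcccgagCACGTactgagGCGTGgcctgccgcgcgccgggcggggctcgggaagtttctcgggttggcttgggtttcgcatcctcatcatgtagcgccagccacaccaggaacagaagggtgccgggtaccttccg

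Of the other motifs, the CCAAT box was in 8 of 36 (22.2%) and 12 of 26 (46.2%), against 36.8% of measured genes. GGGCGG, the GC box, was in 58.3% and 50%, against 70.2%. CACGTG was in 1 and 3 promoters (2.78% and 11.5%), against 10.1% of measured genes. TGACGTCA was in 2 and 0, against 3.28%, and TGANTCA in 2 and 1, against 4.61%. Added after the values were known, TGACNNNGC was in 2 and 3 (5.56% and 11.5%), against 15.1%, and the CArG box in 1 and 1, against 1.04%. These matches are letters in a window and show no binding. The median GC content of the promoters was 61.7% and 58.3% in the 2 directions. It was 65.3% for measured genes and 58.3% for all promoters. The part of GC content in the motif counts was not tested.

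The 56 genes higher under hypoxia therefore came from a common direction under hypoxia and a less common one in KO cells, and the 35 from the rarest direction under hypoxia and the most common one in KO cells. Of the 14420 measured genes, 399 and 497 had opposite signs with no overlap, at any size of difference. Genes with the same sign and no overlap in both comparisons were not counted. In the 56, the hypoxia differences ran from 0.50 to 1.46 (median 0.68) and the KO differences from -0.51 to -1.43 in the downward direction, with a median size of 0.70. In the 35, the hypoxia differences had sizes of 0.51 to 0.99 (median 0.62) and the KO differences ran from 0.51 to 1.98 (median 0.91). The KO difference was the larger in 33 of 56 and in 26 of 35. Only HIF1A-AS3 and ADAMTS16 reached a size of 1 in both comparisons. In a culture measured in bulk, fewer cells that express a gene and less RNA per cell cannot be told apart.

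**Figure D1:**
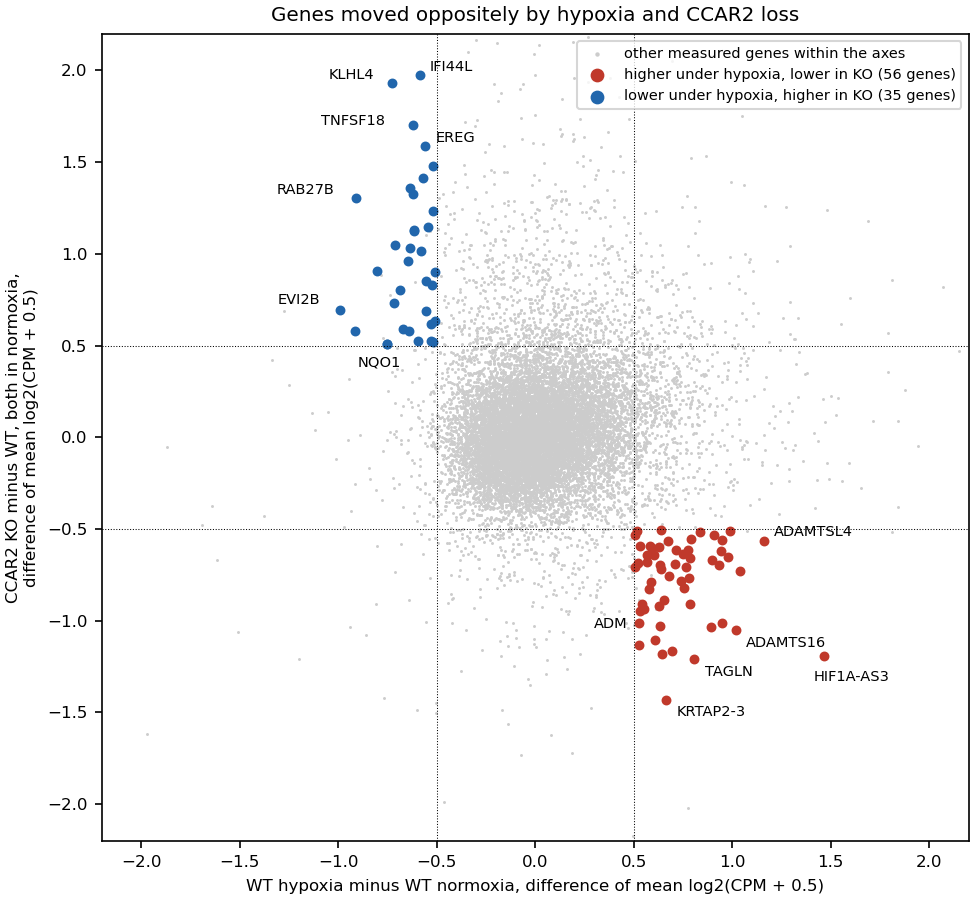
Each point is a gene, with its hypoxia difference on the x axis and its KO difference on the y axis, both as differences of mean log2(CPM + 0.5) from WT normoxia, and dotted lines at a size of 0.5. The 56 genes in red lie at the lower right and the 35 in blue at the upper left, both selected by these values, with HIF1A-AS3 (1.46 and -1.19) farthest right in red and IFI44L (1.98) highest in blue.

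As a description of the same contrasts, edgeR's quasi-likelihood test (Benjamini-Hochberg adjusted p under 0.05 and a log2 fold change of at least 0.5 in size) called 54 of the 56 as higher under hypoxia, where it called 5.83% of all genes tested, and 55 of the 56 as lower in KO cells, where it called 2.94%. It called 34 of the 35 as lower under hypoxia, against 1.43%, and 31 of the 35 as higher in KO cells, against 6.73%. Because the members were selected on these libraries, these counts support nothing further. At the limit, VN1R48P (0.50 and -0.71) and KLC3 (0.50 and -0.53) were just inside, and PPP2R2C (0.4999 and -0.66) and NLGN2 (0.499 and -1.02) just outside. In the other direction SLC7A11 (-0.76 and 0.51) and TSPAN13 (-0.51 and 0.63) were just inside, and IL6 (-0.497 and 1.14) and PER2 (-0.51 and 0.495) just outside. In WT normoxia, 4 and 2 of the members had a mean under 1 CPM, 33 and 19 between 1 and 10, and 19 and 14 at 10 or more. In 13 and 4 members at least 1 library had fewer than 50 counts.

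By selection, the members lay on the same side in every library of a group. Relative to the WT normoxia mean, the median of the 56 was between 0.66 and 0.72 in the 4 hypoxia libraries and between -0.79 and -0.71 in the 4 KO libraries. The median of the 35 was between -0.69 and -0.59 under hypoxia and between 0.82 and 1.00 in KO cells. The ratio of the hypoxia mean to the KO mean was 2.27 to 9.34 (median 3.36) for the 56 and 0.128 to 0.485 (median 0.299) for the 35.

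**Figure D2:**
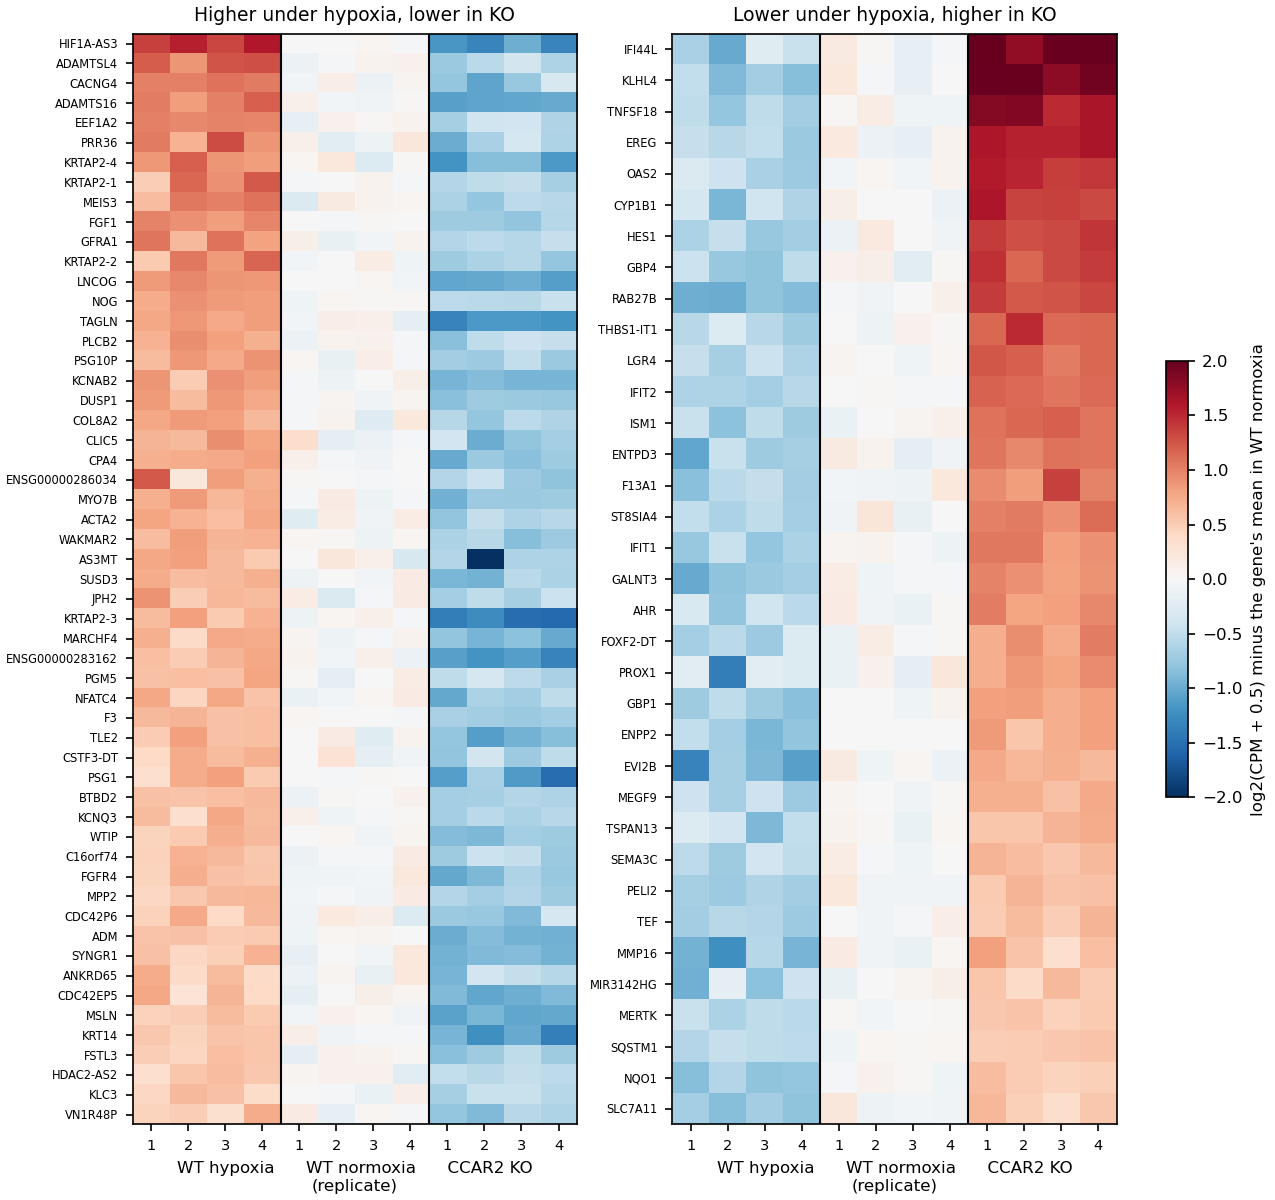
Each row is a gene and each column a library, colored by log2(CPM + 0.5) minus the gene's mean in WT normoxia, from -2 (dark blue) to 2 (dark red). The genes at the left (55 of the 56 drawn) are red in the 4 hypoxia columns and blue in the 4 KO columns and the 35 at the right are the reverse, by selection, while dark single cells such as AS3MT in KO replicate 2 mark libraries that differ from their group.

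Of the 56 genes lower in KO cells but higher under hypoxia, HIF1A-AS3 (ENSG00000258667, chr14:61715558-61751097, - strand) had the largest hypoxia difference. It read 17.7, 20.4, 17.5 and 21.0 CPM under hypoxia, 6.59, 6.62, 6.81 and 6.41 CPM in WT normoxia and 2.68, 2.35, 3.12 and 2.36 CPM in KO cells. The differences were 1.46 ± 0.068 under hypoxia and -1.19 ± 0.084 in KO cells (± SE, n = 4 and 4, as for all differences below), so that hypoxia held 7.29 times the KO level. The RNA starts past the end of HIF1A and is transcribed back across it from the opposite strand, with 0 shared exon bases in GENCODE 29, where the identifier carries the name HIF1A-AS2. HIF1A itself, which encodes the oxygen-regulated HIF subunit, ran the other way, at 107 ± 7.70 CPM under hypoxia, 259 ± 13.1 CPM in WT normoxia and 417 ± 13.3 CPM in KO cells (± SD, n = 4). Whether the counting used strand is not given in the sources used here.

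Secreted factors and their receptors formed one group of these members. FGF1 (chr5:142592178-142698070), a growth factor that binds all FGF receptors, read 31.2, 29.5, 28.0 and 30.9 CPM under hypoxia, 15.6, 14.96, 15.6 and 15.5 CPM in WT normoxia and 9.26, 9.17, 8.70 and 10.2 CPM in KO cells. Its differences were 0.93 ± 0.038 under hypoxia and -0.70 ± 0.048 in KO cells, and its 4 WT normoxia values were close together. FGFR4, which encodes a receptor for such ligands, moved the same way, by 0.58 and -0.82. ADM (chr11:10304680-10307397), the vasodilator peptide adrenomedullin, read 50.9, 51.5, 48.7 and 49.3 CPM under hypoxia, 32.2, 34.9, 35.5 and 33.7 CPM in WT normoxia and 17.0, 18.4, 17.4 and 17.3 CPM in KO cells. The KO difference (0.55 ± 0.036 under hypoxia and -0.94 ± 0.039 in KO cells) was the larger of the pair. ADM was the one member on the list of 49 hypoxia targets. It did not meet the rule with TMM scaling or after a trend with GC content was removed. F3 (chr1:94529225-94541800), tissue factor, which starts blood coagulation, read 587, 601, 566 and 571 CPM under hypoxia, 384, 379, 375 and 364 CPM in WT normoxia and 239, 232, 224 and 231 CPM in KO cells. Its groups were well apart, and its differences, 0.63 ± 0.025 under hypoxia and -0.70 ± 0.026 in KO cells, had small errors. Antagonists of BMP and activin ligands were also members: NOG, which binds BMPs, by 0.84 and -0.52, and FSTL3, which binds activins, by 0.52 and -0.69, which edgeR did not call under hypoxia. GFRA1, a co-receptor for GDNF, moved by 0.91 and -0.54.

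Extracellular and cell surface proteins, including proteases, were the next group. ADAMTS16 (chr5:5140330-5320304), a secreted metalloprotease, read 53.05, 46.1, 52.3 and 59.4 CPM under hypoxia, 27.5, 24.8, 24.5 and 26.2 CPM in WT normoxia and 11.8, 12.1, 12.2 and 12.5 CPM in KO cells. Its differences of 1.02 ± 0.083 under hypoxia and -1.05 ± 0.042 in KO cells were nearly equal in size, and its KO libraries were close together. CPA4 (chr7:130293134-130324180), a secreted carboxypeptidase, read 44.0, 44.8, 45.5 and 47.4 CPM under hypoxia, 28.6, 26.3, 25.3 and 26.6 CPM in WT normoxia and 13.1, 15.8, 14.7 and 16.04 CPM in KO cells, with differences of 0.76 ± 0.043 under hypoxia and -0.82 ± 0.075 in KO cells. ADAMTSL4, which lacks the protease domain of its relatives and binds fibrillin, had the second largest hypoxia difference of the 56, at 1.16, and a KO difference of -0.56. COL8A2, a short-chain collagen, moved by 0.78 and -0.61, and MSLN, the cell surface protein mesothelin, by 0.52 and -1.01, which edgeR did not call under hypoxia.

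Signaling and ubiquitin genes included DUSP1 (chr5:172768090-172771195), a phosphatase that switches off MAP kinases. DUSP1 read 303, 261, 305 and 283 CPM under hypoxia, 162, 174, 159 and 174 CPM in WT normoxia and 93.1, 102, 99.4 and 98.6 CPM in KO cells. All 4 hypoxia values lay above the WT normoxia range and all 4 KO values below it, and the differences were 0.78 ± 0.063 under hypoxia and -0.76 ± 0.044 in KO cells. MARCHF4 (chr2:216257865-216372027), a membrane-bound E3 ubiquitin ligase, read 122, 96.8, 126 and 124 CPM under hypoxia, 77.1, 68.98, 72.3 and 77.7 CPM in WT normoxia and 42.4, 38.8, 41.8 and 36.5 CPM in KO cells. Hypoxia replicate 2 was the low one of its group, and the differences were 0.65 ± 0.097 under hypoxia and -0.89 ± 0.064 in KO cells. WTIP (chr19:34481638-34512304), a LIM protein of the Ajuba family, read 28.1, 29.8, 34.4 and 32.6 CPM under hypoxia, 20.4, 21.1, 19.5 and 21.4 CPM in WT normoxia and 11.1, 10.8, 12.7 and 12.4 CPM in KO cells. The differences of WTIP were 0.59 ± 0.070 under hypoxia and -0.79 ± 0.063 in KO cells. BTBD2 (chr19:1985438-2034881), a BTB domain protein, read 101, 99.1, 102 and 105 CPM under hypoxia, 61.7, 67.8, 67.1 and 71.1 CPM in WT normoxia and 41.4, 42.0, 44.2 and 43.2 CPM in KO cells. Its differences, 0.60 ± 0.045 under hypoxia and -0.64 ± 0.047 in KO cells, were of like size. SUSD3 (chr9:93058688-93085138), a sushi domain protein of the cell surface, read 16.1, 14.7, 15.1 and 15.8 CPM under hypoxia, 8.73, 9.48, 9.06 and 10.7 CPM in WT normoxia and 4.76, 4.69, 6.36 and 5.91 CPM in KO cells, with differences of 0.68 ± 0.067 under hypoxia and -0.76 ± 0.12 in KO cells.

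Cytoskeletal genes included TAGLN (chr11:117199321-117204782), transgelin, an actin-binding protein of smooth muscle and fibroblasts. TAGLN read 66.6, 71.3, 65.8 and 70.0 CPM under hypoxia, 37.4, 42.7, 41.7 and 34.4 CPM in WT normoxia and 15.04, 17.3, 17.2 and 16.6 CPM in KO cells. Hypoxia held 4.14 times the KO level, and the differences were 0.81 ± 0.077 under hypoxia and -1.21 ± 0.085 in KO cells. The annotation puts 446 exon bases of TAGLN on the opposite strand of PCSK7 exons, and PCSK7 differed by 0.11 under hypoxia and 0.16 in KO cells. ACTA2, smooth muscle actin, was at 6.27 ± 0.411 CPM under hypoxia, 3.64 ± 0.525 CPM in WT normoxia and 2.1998 ± 0.243 CPM in KO cells. It shares 380 exon bases with FAS on the opposite strand, and FAS was at 16.7 ± 0.899 CPM under hypoxia, 19.0 ± 0.925 CPM in WT normoxia and 10.96 ± 0.178 CPM in KO cells, so without strand the 2 cannot be told apart in those bases. MYO7B (chr2:127535802-127637729), a myosin of microvilli, read 3.12, 3.49, 3.03 and 3.21 CPM under hypoxia, 1.66, 1.98, 1.56 and 1.70 CPM in WT normoxia and 0.646, 0.845, 0.821 and 0.854 CPM in KO cells. KO replicate 1 was the lowest library, and the differences were 0.74 ± 0.068 under hypoxia and -0.78 ± 0.080 in KO cells. KRT14 (chr17:41582279-41586921), a keratin of basal epithelial cells, read 3.27, 3.02, 3.36 and 3.30 CPM under hypoxia, 2.34, 1.98, 2.04 and 2.04 CPM in WT normoxia and 0.857, 0.612, 0.794 and 0.505 CPM in KO cells, with differences of 0.52 ± 0.053 under hypoxia and -1.13 ± 0.11 in KO cells. At least 1 KO library of KRT14 had fewer than 50 counts. KRT14 did not meet the rule with TMM or DESeq2 scaling, or after a trend with GC content was removed.

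A second keratin-related group was the KRTAP2 cluster of hair keratin-associated protein genes, where 4 relatives lie within chr17:41046541-41065879 on the - strand. KRTAP2-4 read 7.55, 9.65, 7.59 and 7.40 CPM under hypoxia, 4.05, 4.62, 3.13 and 3.96 CPM in WT normoxia and 1.42, 1.94, 1.94 and 1.49 CPM in KO cells. Its differences were 0.95 ± 0.13 under hypoxia and -1.01 ± 0.14 in KO cells, and hypoxia replicate 2 stood above the other 3. KRTAP2-3 was at 25.1 ± 2.14 CPM under hypoxia, 15.6 ± 0.974 CPM in WT normoxia and 5.498 ± 0.562 CPM in KO cells and had the largest fall in KO cells of the 56, at -1.43. KRTAP2-1 moved by 0.95 and -0.56 and KRTAP2-2 by 0.90 and -0.67. Between 36.1% and 52.8% of the 75-base windows in each of these transcripts also occur in a relative, so reads may be split or shared between them, and the 4 are not independent observations.

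Ion channel genes included KCNAB2 (chr1:5991466-6101193), a regulatory subunit of voltage-gated potassium channels. KCNAB2 read 49.4, 38.1, 50.5 and 48.3 CPM under hypoxia, 26.1, 24.9, 27.0 and 28.97 CPM in WT normoxia and 13.9, 14.5, 13.8 and 13.8 CPM in KO cells. The KO values were close together and hypoxia replicate 2 was low, and the differences were 0.78 ± 0.10 under hypoxia and -0.91 ± 0.047 in KO cells. CACNG4 (chr17:66964910-67033398), an auxiliary subunit of calcium channels and AMPA receptors, read 2.93, 2.95, 3.14 and 3.01 CPM under hypoxia, 1.14, 1.37, 1.07 and 1.27 CPM in WT normoxia and 0.494, 0.321, 0.512 and 0.870 CPM in KO cells. Its KO values were spread, with as few as 22 counts in 1 library, and the differences were 1.04 ± 0.060 under hypoxia and -0.73 ± 0.16 in KO cells. CLIC5 (chr6:45880827-46080348), a chloride intracellular channel protein linked to the actin cortex, read 4.60, 4.50, 5.59 and 5.01 CPM under hypoxia, 3.57, 2.30, 2.42 and 2.59 CPM in WT normoxia and 1.95, 1.11, 1.34 and 1.498 CPM in KO cells. Its WT normoxia replicate 1 was high and KO replicate 1 was high, and the differences were 0.76 ± 0.14 under hypoxia and -0.71 ± 0.18 in KO cells. KCNQ3, a potassium channel pore subunit, moved by 0.59 and -0.60, and JPH2, a junctophilin that ties the cell membrane to calcium stores, by 0.67 and -0.57.

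EEF1A2 (chr20:63488012-63499322), a tissue-restricted translation elongation factor, read 95.0, 92.0, 93.5 and 92.9 CPM under hypoxia, 41.5, 49.5, 47.5 and 49.1 CPM in WT normoxia and 29.3, 35.6, 35.8 and 30.8 CPM in KO cells. The hypoxia difference (0.99 ± 0.059 under hypoxia and -0.51 ± 0.093 in KO cells) was the larger. AS3MT (chr10:102869516-102901899), an arsenic methyltransferase, read 5.69, 5.88, 5.21 and 4.74 CPM under hypoxia, 3.09, 3.75, 3.40 and 2.40 CPM in WT normoxia and 1.92, 0, 1.87 and 1.86 CPM in KO cells. KO replicate 2 was listed at 0 while the other 3 were close together, the SE of the KO difference was 0.58, and edgeR did not call it in KO cells. It shares 2326 exon bases on the same strand with BORCS7-ASMT, a readthrough gene, and 91% of the 75-base windows of AS3MT transcripts occur there too. BORCS7-ASMT was listed at 2.48 CPM in KO replicate 2, at 1.05 CPM in hypoxia replicate 4 and at 0 in the other 10 libraries, so reads of the pair may be assigned to either gene and the KO value of AS3MT is uncertain. Of the noncoding members, LNCOG (chr12:76259839-76305131), a long noncoding RNA, read 5.59, 6.06, 5.67 and 5.66 CPM under hypoxia, 2.89, 2.85, 2.97 and 2.75 CPM in WT normoxia and 1.14, 1.15, 1.21 and 1.07 CPM in KO cells. Its replicates were tight, and the differences were 0.89 ± 0.031 under hypoxia and -1.03 ± 0.031 in KO cells. WAKMAR2 (chr6:137823673-137868233), a long noncoding RNA next to TNFAIP3, read 12.3, 14.3, 12.9 and 13.1 CPM under hypoxia, 8.11, 7.97, 7.33 and 8.07 CPM in WT normoxia and 4.88, 5.19, 4.15 and 4.55 CPM in KO cells, with differences of 0.71 ± 0.055 under hypoxia and -0.69 ± 0.070 in KO cells. It shares 95 exon bases with TNFAIP3, an inhibitor of NF-κB signaling, on the opposite strand, and TNFAIP3 was at 0.38 and -0.30.

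The other members in this direction were described by their differences, under hypoxia and then in KO cells. NFATC4, a calcineurin-dependent transcription factor, was at 0.64 and -0.72, TLE2, a Groucho corepressor, at 0.63 and -0.92, and MEIS3, a homeobox factor, at 0.94 and -0.62. PLCB2, a phospholipase C that acts below G proteins, was at 0.79 and -0.55, and CDC42EP5, an effector of the GTPase CDC42, at 0.53 and -0.95. MPP2, a scaffold of the MAGUK family, was at 0.57 and -0.64, SYNGR1, a synaptic vesicle protein, at 0.54 and -0.91, and PGM5, a phosphoglucomutase relative found at cell adhesions, at 0.64 and -0.51. PRR36, C16orf74 and ANKRD65 were at 0.98 and -0.65, at 0.58 and -0.59 and at 0.53 and -0.59. The RNAs CSTF3-DT, HDAC2-AS2, ENSG00000286034 and the pseudogene CDC42P6 were at 0.62 and -0.60, 0.51 and -0.51, 0.75 and -0.64 and 0.57 and -0.68, and the KO and normoxia libraries of CDC42P6 were 0.061 apart at their nearest. Of the 75-base windows of CDC42P6, 36.1% also occur in transcripts of CDC42, the parent GTPase gene, which was at 227 ± 24.3 CPM under hypoxia, 256 ± 7.78 CPM in WT normoxia and 112 ± 3.27 CPM in KO cells, with differences of -0.17 and -1.19, so reads may be shared and the value of CDC42P6 is uncertain. PSG1, a pregnancy-specific glycoprotein, was at 0.60 and -1.10, and its pseudogene relative PSG10P at 0.79 and -0.66. ENSG00000283162 was at 0.64 and -1.18.

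**Figure D3:**
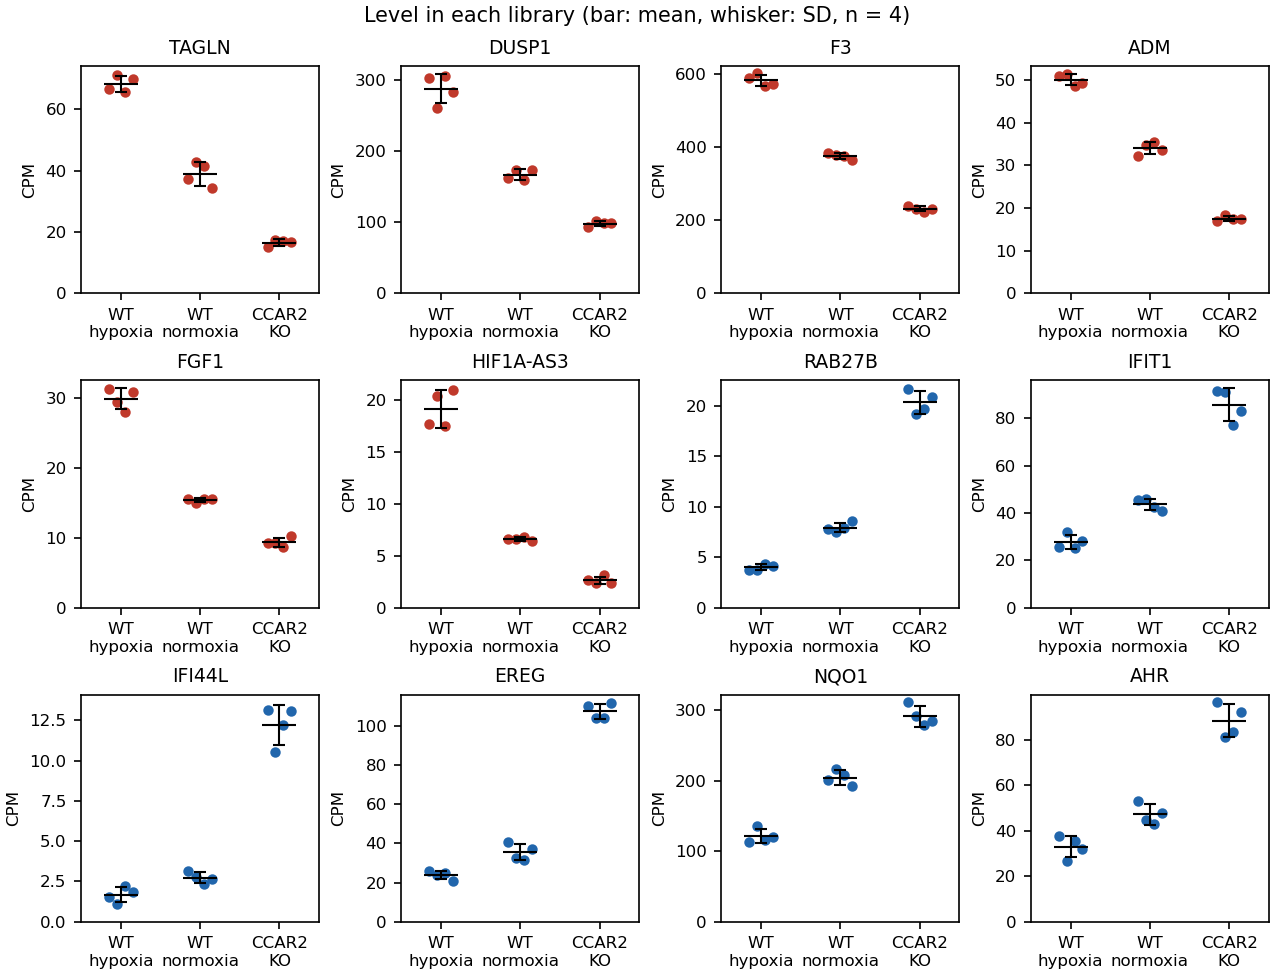
CPM of 12 members in each of the 12 libraries, with the x axis giving the group, points for libraries, a bar for the mean and whiskers for the SD (n = 4). The 6 genes in red fall from WT hypoxia to WT normoxia to CCAR2 KO and the 6 in blue rise, as their selection requires, with F3 between 566 and 601 CPM under hypoxia and 224 and 239 CPM in KO cells.

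Of the 35 genes higher in KO cells but lower under hypoxia, 5 were on the list of interferon and antigen presentation genes. IFIT1 (chr10:89392546-89406486), which binds viral RNA that lacks the host cap methylation, read 25.7, 32.1, 25.4 and 28.1 CPM under hypoxia, 45.4, 45.9, 42.7 and 40.9 CPM in WT normoxia and 91.7, 91.1, 77.4 and 83.2 CPM in KO cells. Its differences were -0.65 ± 0.086 under hypoxia and 0.96 ± 0.070 in KO cells. IFIT2 (chr10:89283694-89309276), its neighbor and relative, read 23.9, 23.9, 23.0 and 25.1 CPM under hypoxia, 37.3, 37.7, 36.6 and 36.4 CPM in WT normoxia and 84.7, 82.0, 78.0 and 81.5 CPM in KO cells. The replicates of IFIT2 were tight, and the differences were -0.62 ± 0.028 under hypoxia and 1.13 ± 0.027 in KO cells. No 75-base window is shared between IFIT1 and IFIT2 transcripts. IFI44L (chr1:78619922-78646145), an interferon-induced protein with little known function, read 1.56, 1.10, 2.22 and 1.87 CPM under hypoxia, 3.17, 2.80, 2.37 and 2.63 CPM in WT normoxia and 13.2, 10.5, 12.2 and 13.1 CPM in KO cells. Its KO rise was the largest of the 35 (-0.59 ± 0.18 under hypoxia and 1.98 ± 0.10 in KO cells), but its hypoxia and normoxia libraries were only 0.08 apart at their nearest on the log2 scale. IFI44L did not meet the rule after a trend with GC content was removed, or without the 3 libraries under 100000000.

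OAS2 (chr12:112978395-113011723), a synthase of the oligoadenylates that activate RNase L, read 3.27, 2.95, 2.46 and 2.30 CPM under hypoxia, 3.96, 4.26, 3.93 and 4.33 CPM in WT normoxia and 13.4, 12.7, 11.5 and 11.9 CPM in KO cells, with differences of -0.52 ± 0.10 under hypoxia and 1.48 ± 0.058 in KO cells. GBP1 (chr1:89052319-89065360), an interferon-induced GTPase that attacks intracellular pathogens, read 7.36, 8.57, 7.31 and 6.73 CPM under hypoxia, 12.4, 12.3, 11.6 and 13.0 CPM in WT normoxia and 22.1, 22.4, 20.8 and 22.2 CPM in KO cells. Its differences were -0.69 ± 0.075 under hypoxia and 0.80 ± 0.039 in KO cells. GBP4 (chr1:89181148-89198932), a relative in the same cluster on chromosome 1 that was not on the list, read 0.864, 0.585, 0.557 and 0.792 CPM under hypoxia, 1.46, 1.49, 1.07 and 1.36 CPM in WT normoxia and 4.56, 3.56, 4.07 and 4.32 CPM in KO cells. Its KO values were more than 2 times any WT value, and the differences were -0.62 ± 0.12 under hypoxia and 1.33 ± 0.10 in KO cells. As few as 49 counts stood behind one of its libraries.

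The 5 members on the interferon and antigen presentation list were a minority of its 54 measured genes, of 65 in all. Among all 14420 measured genes, 35 were members in this direction. In KO cells 29 of the 54 passed the size and non-overlap limits as higher and 0 as lower, with a median difference of 0.61, beside 0.0230 for all measured genes. Under hypoxia 3 passed as higher and 5 as lower, with a median of 0.04, beside 0.0044. Genes that were higher in KO cells had hypoxia differences of either sign. DDX58, the RNA sensor RIG-I, was at 1.27 in KO cells and 0.08 under hypoxia. OASL was at 1.32 and -0.47, and IFI27 at 1.06 and 0.56.

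**Figure D4:**
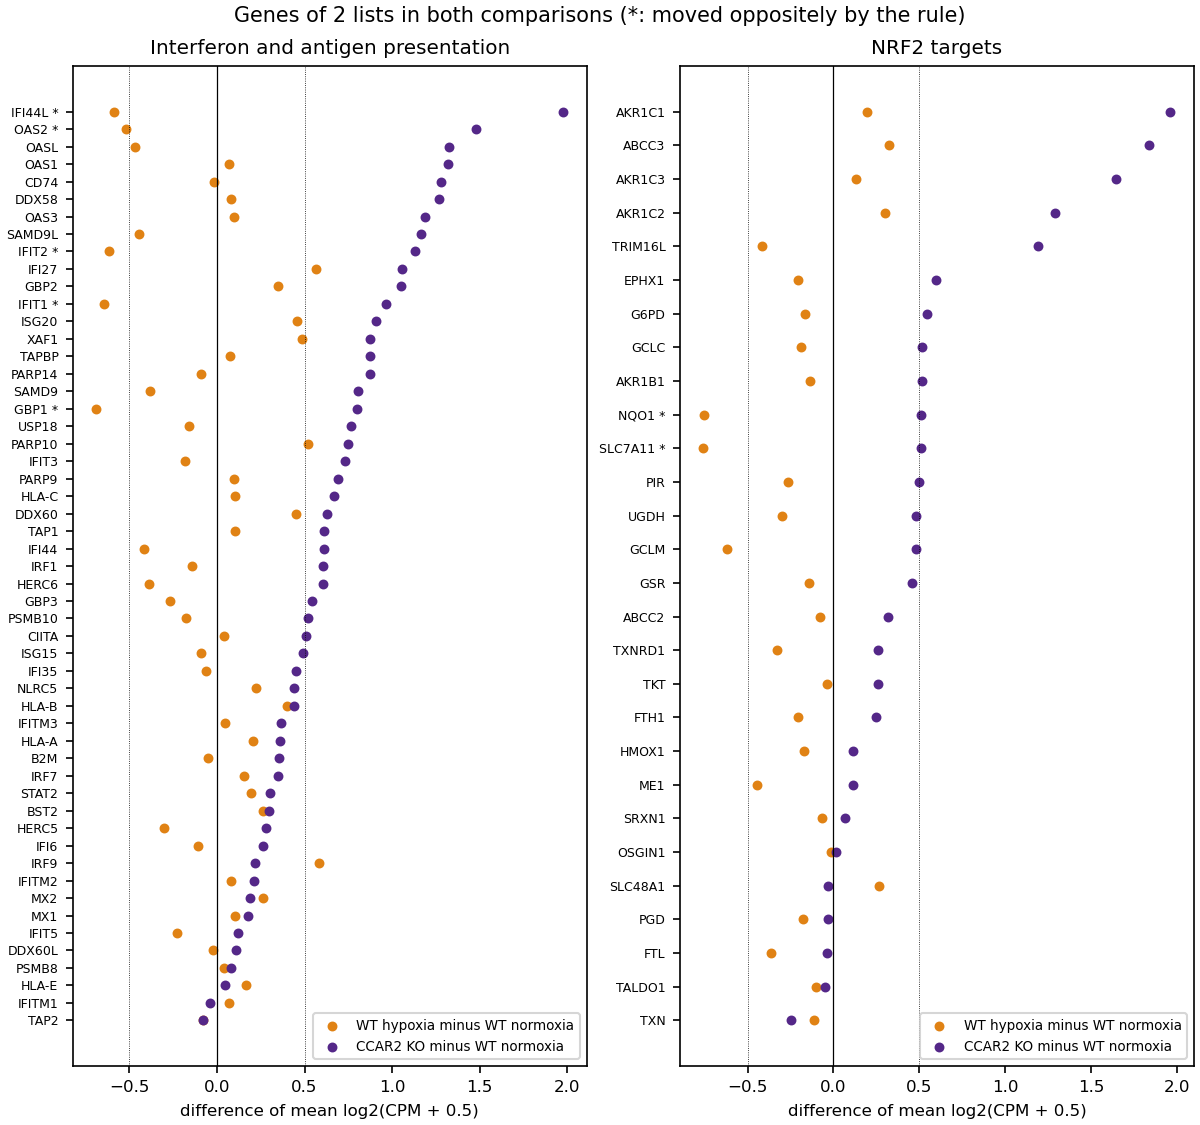
Each row is a measured gene of the interferon list (left, 53 of 54 genes drawn) or the NRF2 list (right, 28 genes), ordered by its KO difference, with the x axis giving the difference of mean log2(CPM + 0.5) from WT normoxia under hypoxia (orange) and in KO cells (purple). Most purple points lie right of 0 (medians 0.61 and 0.47) while the orange points lie around or left of it (medians 0.04 and -0.17), and an asterisk marks the 5 and 2 members.

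NRF2 targets gave 2 members. NQO1 (chr16:69706996-69726951), a quinone reductase, read 113, 136, 116 and 119.8 CPM under hypoxia, 201, 217, 208 and 192 CPM in WT normoxia and 312, 291, 278 and 284 CPM in KO cells. The differences of NQO1 were -0.75 ± 0.069 under hypoxia and 0.51 ± 0.051 in KO cells. SLC7A11 (chr4:138164097-138242349), the cystine importer that feeds glutathione synthesis, read 56.9, 50.4, 56.6 and 52.2 CPM under hypoxia, 107, 85.3, 88.2 and 87.2 CPM in WT normoxia and 145, 127, 117 and 133 CPM in KO cells. Its WT normoxia replicate 1 was high, and its differences were -0.76 ± 0.086 under hypoxia and 0.51 ± 0.098 in KO cells. Both were just past the limit in KO cells, and edgeR did not call either there. Neither met the rule with TMM or DESeq2 scaling. NQO1 also did not meet it after a trend with GC content was removed, and SLC7A11 was lost in 5 leave-one-out settings. Of the 29 genes of the list, 28 were measured, and 11 passed as higher in KO cells and 0 as lower, with a median of 0.47. With TMM or DESeq2 scaling the count of 11 became 6. Under hypoxia 0 were higher and 3 were lower, with a median of -0.17. GCLM, a subunit of the enzyme that starts glutathione synthesis, was at -0.62 under hypoxia and missed the KO limit at 0.48. AKR1C1, a keto reductase, was at 0.20 and 1.96.

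SQSTM1 (chr5:179806398-179838078), an autophagy receptor whose gene is also known to respond to NRF2, read 133, 145, 141 and 140.2 CPM under hypoxia, 188, 206, 203 and 206 CPM in WT normoxia and 281, 285, 291 and 297 CPM in KO cells. Its differences, -0.52 ± 0.041 under hypoxia and 0.52 ± 0.035 in KO cells, were nearly equal in size, and edgeR did not call it in KO cells. SQSTM1 did not meet the rule with TMM or DESeq2 scaling, or after a trend with GC content was removed. It shares 1582 exon bases with MRNIP on the opposite strand, and MRNIP was at 0.46 and 0.25. AHR (chr7:16916359-17346152), the receptor for dioxins and other aryl hydrocarbons, read 37.8, 26.9, 35.7 and 32.1 CPM under hypoxia, 53.02, 44.8, 42.9 and 48.0 CPM in WT normoxia and 96.4, 81.4, 83.3 and 92.4 CPM in KO cells. Hypoxia replicate 2 was the low one, and the differences were -0.51 ± 0.13 under hypoxia and 0.90 ± 0.088 in KO cells. AHR did not meet the rule after a trend with GC content was removed, or without the 3 libraries under 100000000. CYP1B1, an oxidase and a known AHR target, was at 6.34 ± 1.16 CPM under hypoxia, 9.55 ± 0.662 CPM in WT normoxia and 26.3 ± 2.58 CPM in KO cells and moved by -0.57 and 1.41.

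Ligands, receptors and other secreted proteins included EREG (chr4:74365143-74388751), epiregulin, a ligand of the EGF receptor. EREG read 25.7, 24.0, 25.1 and 21.0 CPM under hypoxia, 40.8, 32.6, 31.8 and 37.3 CPM in WT normoxia and 110.3, 104, 104 and 112 CPM in KO cells. Every KO value was more than 2 times the highest WT value, and the differences were -0.56 ± 0.11 under hypoxia and 1.59 ± 0.088 in KO cells. LGR4 (chr11:27365961-27472775), a receptor for R-spondins in WNT signaling, read 36.7, 31.8, 37.3 and 32.7 CPM under hypoxia, 52.7, 50.2, 47.5 and 52.1 CPM in WT normoxia and 119.8, 116, 103 and 113 CPM in KO cells, with differences of -0.54 ± 0.066 under hypoxia and 1.15 ± 0.057 in KO cells. TNFSF18 (chr1:173039960-173050963), the ligand of GITR, a receptor on T cells, read 0.812, 0.597, 0.817 and 0.659 CPM under hypoxia, 1.39, 1.58, 1.26 and 1.27 CPM in WT normoxia and 6.20, 6.27, 4.77 and 5.30 CPM in KO cells. It was under 1 CPM in all 4 hypoxia libraries, and its differences were -0.62 ± 0.086 under hypoxia and 1.70 ± 0.10 in KO cells. ISM1 (chr20:13221771-13300651), the secreted protein isthmin, read 2.30, 1.66, 2.198 and 1.84 CPM under hypoxia, 2.97, 3.28, 3.47 and 3.57 CPM in WT normoxia and 7.56, 7.96, 8.28 and 7.55 CPM in KO cells, with differences of -0.62 ± 0.10 under hypoxia and 1.13 ± 0.059 in KO cells. F13A1 (chr6:6144085-6321013), the enzyme subunit that cross-links fibrin, read 0.956, 1.28, 1.36 and 1.09 CPM under hypoxia, 1.998, 1.97, 1.92 and 2.502 CPM in WT normoxia and 4.51, 4.13, 6.14 and 4.63 CPM in KO cells. KO replicate 3 was the highest, and the differences were -0.64 ± 0.11 under hypoxia and 1.03 ± 0.13 in KO cells. MMP16, a membrane-bound matrix protease, read 3.69, 2.96, 4.92 and 3.72 CPM under hypoxia, 8.498, 7.19, 6.85 and 7.81 CPM in WT normoxia and 13.7, 11.4, 9.70 and 11.8 CPM in KO cells. Its hypoxia difference (-0.92 ± 0.15 under hypoxia and 0.58 ± 0.12 in KO cells) was the larger. SEMA3C, a secreted guidance cue, moved by -0.53 and 0.62, and MERTK, a receptor kinase for the uptake of dying cells, by -0.53 and 0.52, which edgeR did not call in KO cells.

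Transcription factor genes included HES1 (chr3:194136145-194138732), a repressor switched on by Notch. HES1 read 2.66, 3.03, 2.40 and 2.52 CPM under hypoxia, 4.01, 5.11, 4.36 and 4.14 CPM in WT normoxia and 12.4, 11.5, 11.7 and 12.6 CPM in KO cells. Its KO values were well above every WT value, and the differences were -0.64 ± 0.093 under hypoxia and 1.36 ± 0.077 in KO cells. TEF (chr22:41367333-41399326), an output factor of the circadian clock, read 6.77, 7.48, 7.27 and 6.58 CPM under hypoxia, 11.2, 10.6, 10.9 and 12.3 CPM in WT normoxia and 16.2, 17.8, 15.9 and 18.4 CPM in KO cells, with differences of -0.64 ± 0.061 under hypoxia and 0.58 ± 0.066 in KO cells. PROX1, a homeobox factor of lymphatic cells, moved by -0.53 and 0.83, with an SE of 0.30 for the first, and edgeR did not call it under hypoxia.

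Membrane traffic and surface enzymes completed the direction. RAB27B (chr18:54717860-54895516), a small GTPase of vesicle secretion, read 3.76, 3.75, 4.33 and 4.10 CPM under hypoxia, 7.74, 7.51, 7.91 and 8.53 CPM in WT normoxia and 21.6, 19.2, 19.6 and 20.8 CPM in KO cells. Its smaller difference was the largest of the 35 (-0.91 ± 0.059 under hypoxia and 1.30 ± 0.053 in KO cells), and its 3 groups lay far apart. GALNT3 (chr2:165747591-165794682), which adds the first sugar of mucin-type O-glycans, read 6.99, 8.11, 8.48 and 8.88 CPM under hypoxia, 16.1, 13.6, 14.2 and 14.2 CPM in WT normoxia and 29.5, 27.9, 25.7 and 27.5 CPM in KO cells, with differences of -0.80 ± 0.087 under hypoxia and 0.91 ± 0.064 in KO cells. ENPP2, autotaxin, which makes lysophosphatidic acid, read 3.51, 3.04, 2.51 and 2.79 CPM under hypoxia, 5.20, 5.10, 5.11 and 5.20 CPM in WT normoxia and 9.65, 7.81, 8.82 and 9.44 CPM in KO cells. Its WT normoxia values were nearly identical, and the differences were -0.72 ± 0.088 under hypoxia and 0.73 ± 0.065 in KO cells. ENTPD3 (chr3:40387156-40428744), an enzyme that breaks down extracellular nucleotides, read 1.79, 2.97, 2.38 and 2.47 CPM under hypoxia, 4.86, 4.46, 3.64 and 3.96 CPM in WT normoxia and 9.42, 8.69, 9.53 and 9.42 CPM in KO cells. Hypoxia replicate 1 was the lowest, and the differences were -0.71 ± 0.15 under hypoxia and 1.05 ± 0.087 in KO cells. EVI2B (chr17:31303766-31314112), a transmembrane protein encoded within an intron of NF1 on the opposite strand, read 3.09, 5.23, 4.36 and 3.77 CPM under hypoxia, 9.72, 8.004, 8.74 and 7.80 CPM in WT normoxia and 14.8, 13.8, 14.2 and 13.7 CPM in KO cells. It had the largest fall under hypoxia of the 35 (-0.99 ± 0.16 under hypoxia and 0.69 ± 0.073 in KO cells), while NF1 was at -0.15 and 0.24. KLHL4 (chrX:87517749-87670050), a kelch protein, read 3.19, 2.30, 2.72 and 2.38 CPM under hypoxia, 5.49, 4.55, 4.11 and 4.71 CPM in WT normoxia and 19.9, 20.6, 17.5 and 19.3 CPM in KO cells, with differences of -0.73 ± 0.12 under hypoxia and 1.93 ± 0.093 in KO cells.

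Of the remaining members, PELI2, an E3 ligase of interleukin-1 and Toll-like receptor signaling, was at -0.67 and 0.59, ST8SIA4, which builds polysialic acid, at -0.58 and 1.02, and MEGF9, a membrane protein with EGF-like domains, at -0.56 and 0.69. The noncoding FOXF2-DT was at -0.56 and 0.85 and MIR3142HG, a microRNA host gene, at -0.59 and 0.53. The hypoxia and normoxia libraries of MIR3142HG were 0.035 apart at their nearest, and those of PROX1 0.047.

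The noncoding THBS1-IT1 lies inside THBS1 on the same strand and was higher in KO cells by 1.23. THBS1, an angiogenesis inhibitor, was at 1.03 there and at -0.07 under hypoxia, beside -0.52 for THBS1-IT1, so reads from unspliced THBS1 RNA cannot be told apart from the noncoding gene.

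Each gene list held at most 5 members, beside 91 among all 14420 measured genes. Across all measured genes, 5.93% passed as higher and 0.95% as lower under hypoxia, and 7.31% and 2.34% in KO cells. Counts below give the genes higher and then lower under hypoxia, followed by those higher and then lower in KO cells. Of 49 hypoxia targets, all measured, 43 passed as higher under hypoxia and 0 as lower, with a median of 0.81. In KO cells 9 of the 49 passed as higher and 1, ADM, as lower, with a median of 0.13. Of 50 cytokines and growth factors measured, 9 passed as higher and 1 as lower under hypoxia and 19 and 6 in KO cells. FGF1 and EREG were the members on that list. MAPK feedback and AP-1 genes (29 measured) passed 2 and 0 times under hypoxia and 6 and 1 times in KO cells, with DUSP1 as the 1 lower. YAP and TEAD targets (24) passed 3 and 0 times under hypoxia and 2 and 2 times in KO cells, and F3 and WTIP were the 2 lower ones. TGF-beta and SMAD targets (22), with HES1, passed 2 and 2 times under hypoxia and 8 and 0 in KO cells. KLF and other stress transcription factors (32), also with HES1, passed 0 and 1 and then 8 and 4 times. Clock genes (18), with TEF, passed 4 and 2 and then 6 and 0 times.

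Matrix genes (77 measured), with MMP16, passed as higher 20 times and lower 3 times under hypoxia and 33 and 6 times in KO cells. Epithelial and mesenchymal genes (37), with KRT14, passed 3 and 0 and then 9 and 1 times. Unfolded protein and integrated stress genes (41), with SLC7A11, passed 2 and 1 and then 7 and 1 times. Solute carriers (234), again with SLC7A11, passed 20 and 6 and then 29 and 4 times. The lists with 0 members were sterol and fatty acid synthesis (41 measured, 1 and 0 under hypoxia and 7 and 2 in KO cells), integrins and adhesion receptors (38, 5 and 0 and then 15 and 1), proliferation (48, 0 and 0 and then 0 and 1) and p53 targets (30, 1 and 0 and then 4 and 1). Metallothioneins (6, 0 and 0 and then 1 and 0), mitochondrially encoded genes (15, 1 and 0 and then 0 and 0), ZNF genes (469, 7 and 1 and then 8 and 3) and replication-dependent histones (25, 0 and 6 and then 0 and 7) also held 0 members.

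Positions were read from GENCODE 29 (GRCh38) by gene identifier, since the build of the deposited table is not given in the sources used here. Of the 55 matched genes lower in KO cells but higher under hypoxia, 46 were protein coding, 5 long noncoding and 4 pseudogenes, and of the 35 in the other direction 32, 3 and 0. Chromosome 19 held 10 of the 55 (18.2%), against 7.26% of measured genes, and 0 of the 35. Chromosome 17 held 8 (14.5%, with 4 KRTAP2 genes), against 6.26%. Of the 10 on chromosome 19, MEIS3, PRR36, PSG1 and PSG10P still met the rule after the GC trend described below was removed. BTBD2, CDC42EP5, FSTL3, KLC3, TLE2 and WTIP did not. The part of GC content in these shares was not tested. Beside the KRTAP2 cluster, neighboring members within 200 kb were PSG1 and PSG10P on chromosome 19, GBP1 and GBP4 on chromosome 1, IFIT1 and IFIT2 on chromosome 10, TSPAN13 and AHR on chromosome 7, and VN1R48P, which lies within ENSG00000283162 on chromosome 9. Each pair lay in the same direction. VN1R48P is on the opposite strand of ENSG00000283162, with 0 shared exon bases. Without strand, reads from unspliced ENSG00000283162 RNA cannot be told apart from VN1R48P. VN1R48P did not meet the rule with TMM or DESeq2 scaling.

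The median GC content of the longest transcript was 57.7% for the 55 and 42.2% for the 35, against 48.3% for all measured genes. It was above that of all measured genes in 39 of the 55 and in 5 of the 35. The hypoxia difference of all measured genes rose with GC content, from a median of -0.167 under 40% GC to 0.176 over 60% GC, while the KO difference went from -0.019 to 0.054. The median transcript length was 2542 bases for the 55 and 4394 for the 35, against 3473 bases. The trend with GC content was then taken out of each library, fitted to its log2 values relative to the mean of all 12 libraries. After this, 40 of the 56 and 21 of the 35 still met the rule. The part of GC content in the other members was not tested.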

How the data were processed

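Libraries of MDA-MB-231 RNA (4 per group, 12 in all) were grouped by their titles. The methods describe paired-end reads of poly-A RNA, cleaned, aligned by Hisat2 and quantified by StringTie. The submitters' processing notes name HISAT2, SAMtools and featureCounts. The deposited values are each an estimated count per gene that the authors made from the aligned reads, whole numbers not scaled to library size, and 0 value columns were left without a sample. The methods call the replicates biological, but give other numbers per condition than the 4 libraries here, and nothing in the labels says that these came from separate cultures, so errors measure only the spread between these libraries, which may be technical.

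Counts were divided by the column sum to give CPM, and the rule for members was applied with a pseudocount of 0.5, which makes differences of low genes smaller than those of CPM itself. The members and the gene lists were chosen with earlier results of these data known. Values in every library are given for the 15 members of each direction with the largest smaller difference, the 5 with the highest mean CPM and those on a list, other members by ranges or means, and the 2 genes nearest to the limit on each side. The whole table was fitted with edgeR 4.0.16 (filterByExpr, TMM, glmQLFit, 2 groups at a time, no block, adjusted p under 0.05) in R 4.3.3, with DESeq2 1.42.0 as an alternative. The values of 1 member and of 1 interferon list gene are not reported here, though both stay in the counts and medians. No test was made on the members, since both comparisons selected them. Scripts were tested on simulated data. GC content, overlaps and shared windows come from GENCODE 29.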

Additional observations from a re-analysis of the deposited data

Results flagged for a closer look

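Among the 46 members with values in every library, each group of 4 was searched for a library whose gap to the nearest of the other 3, as a share of the group's range, was above Dixon's 95% critical value. Of 138 groups 10 passed, where about 6.9 would by chance. In KO cells, AS3MT replicate 2 was the lowest (0.968), ENTPD3 replicate 2 the lowest (0.87), KCNAB2 replicate 2 the highest (0.953) and MYO7B replicate 1 the lowest (0.839). In WT normoxia, F13A1 replicate 4 was the highest (0.863), FGF1 replicate 2 the lowest (0.933), KRT14 replicate 1 the highest (0.845) and SLC7A11 replicate 1 the highest (0.861). Under hypoxia, KRTAP2-4 replicate 2 was the highest (0.916) and MARCHF4 replicate 2 the lowest (0.869). KO replicate 2 and hypoxia replicate 2, with 5 of the 10, were 2 of the 3 libraries with sums under 100000000. The part of library size in these values was not tested.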

How the results depend on the processing

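The 56 and 35 members were recounted under other settings. A pseudocount of 5 left 12 and 6, a size of at least 1 left 2 and 0, and calls in both comparisons gave 91 and 59 genes with edgeR (53 and 30 of the members), 98 and 63 with DESeq2 and 86 and 58 with edgeR and a replicate block. The other settings stayed within 1.5 times of the main counts. TMM library sizes gave 52 and 46 (46 and 30 of the members kept), DESeq2 size factors 54 and 37, a pseudocount of 0.1 gave 74 and 50, and a pseudocount of 1 gave 38 and 26. A mean of at least 5 CPM gave 38 and 29, and allowing overlap 66 and 43. Removal of the GC trend (48 and 28, with 40 and 21 kept) and leaving out the 3 libraries under 100000000 (69 and 39, with 54 and 31 kept) were chosen after seeing the data. Leaving out 1 replicate at a time gave 52 to 64 and 33 to 41, and 42 of the 56 and 20 of the 35 were never lost. Under leave-one-out, TMM, DESeq2 size factors, GC removal, the deeper libraries and the calls of edgeR and of DESeq2 together, 31 and 17 were kept. The cause of these changes was not tested, beyond the smaller differences of low genes that a larger pseudocount makes by construction.

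edgeR called 88 of the 91 members under hypoxia and 86 in KO cells, with 83 to 89 and 85 to 88 when 1 replicate was left out, and 88 and 86 with the replicate block. Replicate numbers did not pair all libraries, with correlations of same-numbered deviations of -0.016 to 0.24 for hypoxia and -0.11 to 0.11 for KO cells. The WT normoxia library that matched best had the same number for hypoxia replicates 1 and 2 and KO replicate 1. It had another number for the rest. For the 46 members with values in every library, 92 differences were recomputed with TMM sizes. Of these, 77 moved by less than 1 SD, 15 moved by more, and 0 changed sign. Differences were also recomputed without 1 replicate, but these could show no such move. Leaving out 1 of 4 libraries always shifts a mean by less than 1 SD. Their sign was fixed as well, since the libraries of a member do not overlap. With TMM the median of all measured genes was -0.0590 under hypoxia and -0.0547 in KO cells. Members with fewer than 50 counts in a library, 13 and 4, are limited by depth.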
